A study of Mus musculus with 192 samples.

Results

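The comparison set chambers with a high level of Zfp42 against chambers with a low level, among the wells of a microfluidic chip that held little RNA. Of 96 wells, 44 held at most 40000 gene molecules and at least 2000 spike-in molecules. They were ranked by Zfp42 molecules per 10000 gene molecules, so the members of both groups were chosen by the measured Zfp42 count. The 14 wells with the highest level (Zfp42-high) were compared with the 14 wells with the lowest (Zfp42-low), and the 16 wells between them were not compared. Gene molecules are all counted molecules apart from the synthetic spike-in RNAs, which were added in equal amount to each chamber, and repeat elements. Zfp42 itself chose the wells, so its levels are given as a description and it was left out of every gene count.

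The cells belonged to the embryonic stem (ES) cell line R1 of the mouse and had been grown in ES1 medium over irradiated embryonic fibroblast feeders, cleared of dead and early apoptotic cells and frozen. After thawing they were loaded on 1 chip that captures single cells, lysed, reverse transcribed and amplified by 21 cycles of PCR, and each library was also sequenced in a form amplified by 9 further cycles. All wells therefore shared genotype, medium and treatment, and came from 1 culture. Images of the chambers were not used here, so some of the 44 low-RNA wells may have held no intact cell, which bears on every low-RNA value. Each group of wells is 1 sample, no p-value was computed, and spreads below are spreads between wells.

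Zfp42, also called Rex1, encodes a zinc finger protein of the YY1 family and is a long-used reporter of the naive state of mouse ES cells. In serum cultures ES cells are known to be a mixture, in which Zfp42-high cells also express other naive genes such as Klf4, Esrrb and Tbx3, and Zfp42-low cells express more of the genes of primed, post-implantation epiblast. The Zfp42 promoter is a textbook target of Pou5f1 (Oct4), Sox2 and Nanog.

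The sequence upstream of Zfp42 is shown because Zfp42 ranks the wells. Those of Tet1 and Klf2 are shown because both genes had mean ratios over 2 in low-RNA and in RNA-rich wells. They were thus chosen with those values known. Other genes also had such ratios, among them Dnmt3l (2.22 and 7.47) and Tcl1 (3.83 and 9.4), and are not shown. Without the highest well the low-RNA ratios were 1.51 for Tet1 and 1.59 for Klf2. Each run is the 250 bases before the RefSeq gene start (GRCm38.p6), 5′ to 3′ on the gene's strand. The runs lie at chr8:43307010-43307259 (minus strand) for Zfp42, chr10:62887325-62887574 (minus strand) for Tet1 and chr8:72318812-72319061 (plus strand) for Klf2. GENCODE M21 places each of these gene starts differently. It starts Zfp42 at chr8:43306980, so by that annotation the Zfp42 run ends short of the gene and its motifs lie farther upstream. It starts Tet1 at chr10:62908996, so by that annotation the Tet1 run lies inside the gene and is not its promoter. It starts Klf2 at chr8:72319033, so the last bases of the Klf2 run lie inside that gene. Capitals mark matches, on either strand, to the octamer ATTTGCAT, the Sox motif CTTTGTT, the Esrrb motif CAAGGTCA or the Klf motif CCACACCC.
Zfp42: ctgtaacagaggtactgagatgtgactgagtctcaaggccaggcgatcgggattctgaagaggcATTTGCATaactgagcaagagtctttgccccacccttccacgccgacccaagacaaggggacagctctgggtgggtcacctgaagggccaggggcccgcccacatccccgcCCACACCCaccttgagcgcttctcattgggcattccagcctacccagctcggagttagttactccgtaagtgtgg
Tet1: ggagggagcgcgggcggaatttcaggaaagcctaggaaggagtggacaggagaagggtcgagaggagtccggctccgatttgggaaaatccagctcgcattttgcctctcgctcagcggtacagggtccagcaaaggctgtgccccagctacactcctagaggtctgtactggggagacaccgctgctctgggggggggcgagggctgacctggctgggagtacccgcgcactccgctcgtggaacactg
Klf2: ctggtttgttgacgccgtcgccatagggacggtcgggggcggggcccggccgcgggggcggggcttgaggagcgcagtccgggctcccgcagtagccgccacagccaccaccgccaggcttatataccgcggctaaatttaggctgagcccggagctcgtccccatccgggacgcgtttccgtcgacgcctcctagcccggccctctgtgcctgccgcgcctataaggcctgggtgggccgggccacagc
The Zfp42 run held the octamer, starting at -186 from the RefSeq gene start, and the Klf motif at -75, which do not overlap. Over 32851 upstream regions of the same length, 1.60% held the octamer, 5.03% the Sox motif, 1.33% the Esrrb motif and 3.20% the Klf motif. The runs of Tet1 and Klf2 held none of these letters.

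In the 14 Zfp42-high wells the Zfp42 level ran from 6.74 (well F07) to 12.6 molecules per 10000 (well H01), with a median of 8.67 and a mean of 9.01 ± 1.57 (SD over wells). In the 14 Zfp42-low wells it ran from 1.89 (well D10) to 4.82, with a median of 4.18 and a mean of 3.80 ± 0.895. By the ranking the groups cannot overlap. The highest level of the Zfp42-low wells, 4.82, was followed by 5.00 in the nearest uncompared well, and the lowest of the Zfp42-high wells, 6.74, was preceded by 6.61. The levels thus formed a run of values with no break at either limit.

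These levels rested on few molecules. The Zfp42-high wells held between 8 and 39 Zfp42 molecules, with a median of 19.5, and the Zfp42-low wells between 3 and 17, with a median of 9.5. The RNA content did not separate the groups. Gene molecules per well had a median of 23104.5 (9879 to 32105) in Zfp42-high wells and 25433 (8774 to 35271) in Zfp42-low wells. Over the 44 wells the Spearman coefficient of the Zfp42 level with gene molecules was -0.053, as a description. The limits of the rule lay far from any well in RNA content, with 35543 gene molecules in the fullest low-RNA well and 51390 in the next well of the chip. One further well had few gene molecules but only 926 spike-in molecules, against at least 4572 in the wells kept.

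**Figure D1:**
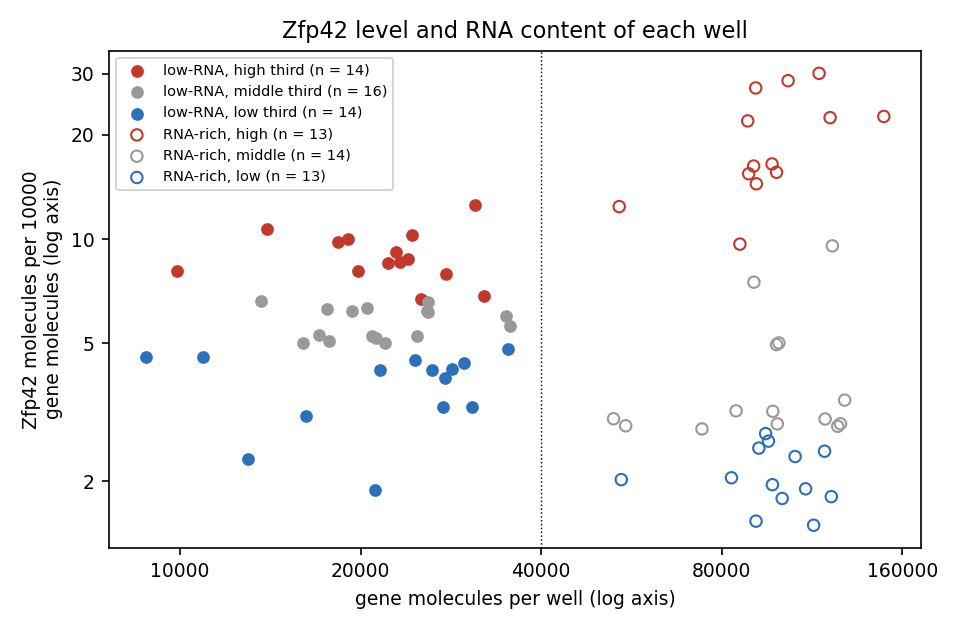
Zfp42 level (vertical axis, molecules per 10000 gene molecules, log axis) against gene molecules per well (horizontal axis, log axis). Filled points are the 44 low-RNA wells and open points the 40 RNA-rich wells used beside them, coloured by rank of the Zfp42 level, and the dotted line is the limit of 40000 gene molecules. Low-RNA wells span 1.89 to 12.6, and RNA-rich wells 1.49 to 30.1.

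The spread of Zfp42 over the low-RNA wells was no larger than that of a spike-in of like abundance. After division by each well's total, Zfp42 had a mean of 13.9 molecules and a coefficient of variation (CV, SD as a percent of the mean) of 38.4%. The spike-in nearest to it, with a mean of 13.9 molecules, had a CV of 40.9%, although each chamber received the same amount. Over the 6 spike-ins whose mean lay within a factor of 2 of that of Zfp42 the CV ran from 39.7% to 83.8%, all above Zfp42. Of 279 genes with a mean in the same range, 122 (43.7%) had a larger CV than Zfp42. Counting of single molecules alone would give 28.3% at this mean.

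The same gene spread widely in the wells with more RNA. The 40 RNA-rich wells held over 40000 gene molecules, at least 2000 spike-in molecules and at most 10 Krt8 plus Krt18 molecules per 10000, a limit that leaves out keratin-rich wells. There the Zfp42 level ran from 1.49 to 30.1, with a median of 3.11 and a CV of 102.7%. Spike-ins of like mean, 9 in number, had CVs of 16.4% to 25.6%, and 6 of 261 genes (2.30%) exceeded Zfp42. When each RNA-rich well was thinned at random to the total of a low-RNA well (8774 to 35543 molecules), Zfp42 had a mean of 20.7 molecules and still a CV of 108.8%, with levels from 0.625 to 35.7. The spread of Zfp42 in RNA-rich wells was as large at the totals of low-RNA wells as at their own. Thinning equalised totals only. The mean of Zfp42 stayed above the 13.9 molecules of low-RNA wells. The spread of spike-ins in low-RNA wells, with CVs of 39.7% to 83.8% at like mean, was not added. The part of depth in the narrower low-RNA spread was not tested.

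**Figure D2:**
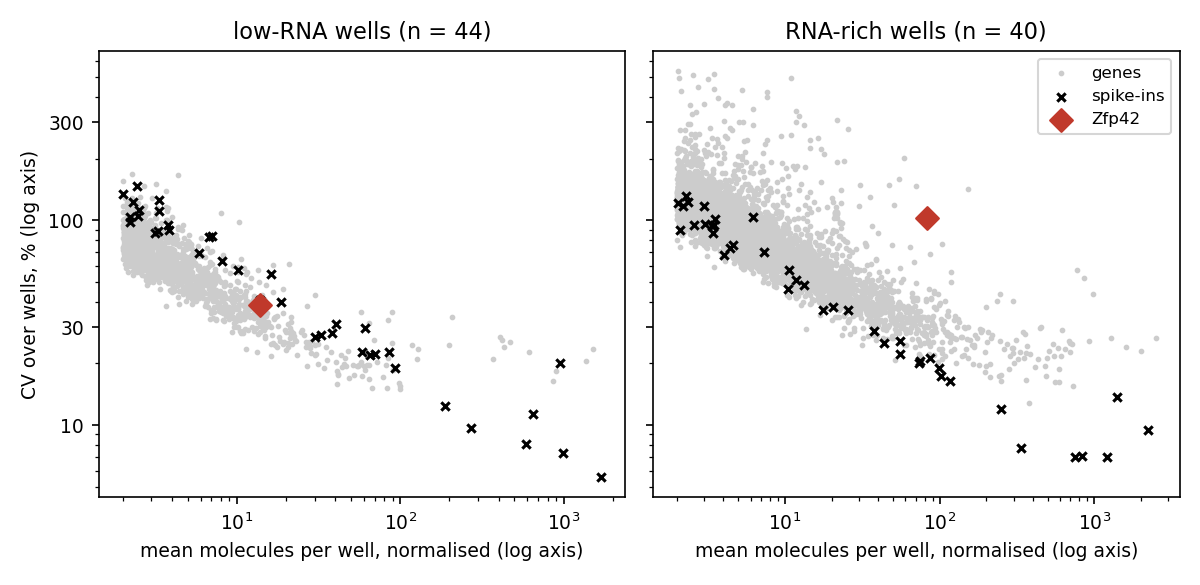
CV over wells (vertical axis, percent, log axis) against mean molecules per well after division by the well's total (horizontal axis, log axis) for genes with a mean of at least 2 (grey points), spike-ins (crosses) and Zfp42 (diamond). In low-RNA wells Zfp42 (38.4%) lies within the genes and below the nearest spike-in, and in RNA-rich wells (102.7%) it lies far above both.

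Markers of ES cells were found in both groups. Dppa5a, Sox2 and Tdgf1 were found in 14 of 14 wells of each group, Pou5f1 in 12 Zfp42-high and 11 Zfp42-low wells, and Nanog in 9 and 13. Utf1 was found in 10 and 13 wells, from 22 against 37 molecules, and Sall4 in 10 and 12, from 39 against 28. The summed level of these 7 ES cell markers had a median of 45.1 (30.0 to 60.8) in Zfp42-high wells and 46.5 (34.6 to 72.9) in Zfp42-low wells. Most of this sum was Dppa5a, with mean levels of 36 and 37.1. Of 5 primitive endoderm markers, Gata4 and Sox17 were at 0 in all 44 wells, and the sum ran from 0 to 0.322 and from 0 to 0.617. The simple-epithelium keratins Krt8 and Krt18 were found in every low-RNA well, with summed levels of 3.49 to 8.32 and 2.79 to 11.4. Other trophectoderm markers were near 0, with Elf5 at 0 in all wells and Cdx2 at 1 molecule in 1 well.

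Feeder fibroblast markers were low in both groups. Their sum over 8 genes had a median of 2.57 (0.715 to 4.51) in Zfp42-high wells and 1.47 (0 to 8.02) in Zfp42-low wells, mostly Fn1, which had 65 and 46 molecules in all. Col3a1, Thy1 and Postn were at 0 in all 44 wells, and Acta2 had 12 and 4 molecules. Col1a1 had 0 and 3, Col1a2 2 and 4, and Thbs2 1 and 2. In the RNA-rich wells 1 Zfp42-low well, E02, held 47.2 feeder marker molecules per 10000, where the median of its group was 1.75. The mitochondrial share of gene molecules had medians of 29.6% (25.1% to 37.7%) and 28.4% (20.6% to 38.3%). In the RNA-rich wells described above it had a median of 10.7%, and its highest value of 16.5% lay below the lowest of the low-RNA wells. Its part in differences between low-RNA and RNA-rich wells was not tested. Chip position was unevenly shared, since 10 of the Zfp42-high and 8 of the Zfp42-low wells lay in columns 1 to 6, and 10 and 7 in rows E to H. Counts from a ranking within chip columns are given with the other settings below. Beyond that description, the part of position in the results was not tested.

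No gene met the 2-fold rule upwards. A gene counted as higher in Zfp42-high wells where the mean level was at least 2 times that of the Zfp42-low wells, also without its highest well, over the 1440 genes whose mean was 2 or more molecules per well. By this rule 0 genes were higher (0%) and 5 were lower (0.347%). Ratios of at least 1.5 were found for 68 genes (4.72%), and of at most 1/1.5 for 106 (7.36%), with all wells included. The groups overlapped for every gene, so 0 genes (0%) had separate ranges. The same rule applied to 38 spike-ins of a mean of at least 2 molecules, which were added in equal amount, gave 0 higher (0%) and 1 lower (2.63%).

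In the RNA-rich wells, ranked the same way into 13 Zfp42-high and 13 Zfp42-low wells, 142 of 5170 genes (2.75%) were higher and 222 (4.29%) lower. Leaving out E02 and another well with over 20 feeder marker molecules per 10000 gave 159 higher and 236 lower, of which 128 and 177 were among those genes. After thinning to the totals of low-RNA wells, 1740 genes were measured, of which 28 (1.61%) were higher and 40 (2.30%) lower. Of these, only 13 and 18 were among the 142 and 222 genes found without thinning. The ranges of both groups were separate for 1 gene (0.0193%), Gpx4, a glutathione peroxidase that reduces lipid peroxides, at 7.34 ± 1.49 against 3.86 ± 1.14 per 10000. In low-RNA wells Gpx4 had 3.64 ± 1.16 against 3.31 ± 1.25. It is named after its value was seen. More genes met the rule in RNA-rich than in low-RNA wells also at like totals. Thinning equalises totals only, and this difference between counts was not tested.

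The 5 lower genes were all of low abundance, with fewer than 5 molecules per well. Cnot4, a ubiquitin ligase subunit of the CCR4-NOT mRNA deadenylation complex, had levels of 0 to 1.74 (median 0) in Zfp42-high and 0 to 5.27 (median 1.19) in Zfp42-low wells. Its mean ratio was 0.276, from 15 against 54 molecules, and the groups overlapped. Its ratio in RNA-rich wells was 1.05. Ktn1, the kinesin receptor kinectin of the endoplasmic reticulum, had 0.416 to 2.02 (median 0.840) against 0.361 to 6.73 (median 2.33). The ratio was 0.375 from 30 against 86 molecules, again with overlapping wells, and 0.778 in RNA-rich wells.

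Ckap2, a spindle protein of dividing cells, had a ratio of 0.411 from 20 against 46 molecules. Ap2m1, the medium subunit of the clathrin adaptor, had 0.418 from 17 against 39, and Fam133b, a gene whose product is little described, 0.421 from 30 against 67. In each of these 3 genes wells of both groups overlapped. The ratios in RNA-rich wells were 0.992, 1.02 and 1.23. Of the 5 genes, 2 thus lay on the same side of 1 in RNA-rich wells (40%), beside 806 of 1438 genes measured in both (56.05%), and 0 met the 2-fold rule there. The side of 1 changed without the highest well for Cnot4 (0.932), Ap2m1 (0.927) and Ckap2 (1.21). The 4 genes other than Ckap2, which is of the G2 and M phase list, are named because the count was small, after their values were seen.

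Of the core pluripotency genes, none met the rule. In this list of 14 genes, 9 were measured, of which 7 had a ratio above 1 and 2 below, with a median log2 ratio of 0.22 beside -0.03 over all 1440 genes. Tdgf1, the Nodal co-receptor Cripto, had 3.04 to 8.58 (median 4.64) against 3.37 to 6.97 (median 4.73), a mean ratio of 1.09. Sox2, the partner of Pou5f1, had 0.410 to 1.67 (median 1.01) against 0.327 to 2.75 (median 1.12), a ratio of 0.799. Both genes overlapped over most of their range. In RNA-rich wells the ratio of Sox2 was 3.21 and that of Tdgf1 0.839. Pou5f1, the POU factor of pluripotency, had a ratio of 1.38 from 29 against 25 molecules, and 1.26 in RNA-rich wells. Under 50% of its molecules came from uniquely matched reads, so its value is uncertain. Nanog had a mean of 1.36 molecules per well, below the limit of 2, and a ratio of 0.905 from 17 against 20 molecules. Its interval was 0.428 to 1.75, and its ratio in RNA-rich wells was 2.97.

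Most naive-state genes fell below the count limit in low-RNA wells. Of 22 in the list, 2 were measured here and 13 in RNA-rich wells, where 10 were higher and 0 lower by the 2-fold rule, beside 2.75% and 4.29% of all genes there. The 2 measured genes were Dppa5a and Klf4. Dppa5a, which binds RNA in pluripotent cells, was the most abundant of the ES cell markers. Its level was 23.6 to 50.7 (median 35.7) in Zfp42-high and 26 to 59.3 (median 36.3) in Zfp42-low wells. The means were 36 ± 8.40 and 37.1 ± 8.48, a ratio of 0.969, and the groups covered nearly the same range. The summed molecules, 1102 against 1139, gave an exact Poisson 95% interval of 0.911 to 1.08 for the ratio, which covers counting error only. In RNA-rich wells the means were 117 ± 36.3 and 54.7 ± 39.4, a ratio of 2.14.

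Klf4, a Krüppel-like factor, had 0 to 9.02 (median 1.28) against 0 to 3.08 (median 0.995). The mean ratio was 1.61, and 1.09 without the highest well, H01. Fewer than 50% of Klf4 molecules were uniquely matched, so this value is uncertain.

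Klf2, a related factor of naive cells, was counted in 24 against 11 molecules, with levels of 0 to 2.90 (median 0.525) and 0 to 0.946 (median 0.163). The ratio was 2.14 with an interval on the summed molecules of 1.05 to 5.05, and 1.59 without H01. In RNA-rich wells it was 3.95. Dnmt3l, the catalytically inactive partner of the de novo DNA methyltransferases, was counted in 20 against 9 molecules, a ratio of 2.22 with an interval of 0.991 to 5.68. In RNA-rich wells its ratio was 7.47. Both genes had fewer than 2 molecules per well and lie outside the rule.

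Esrrb, an orphan nuclear receptor, had 7 against 4 molecules in all, Fbxo15, an F-box target of Pou5f1 and Sox2, 10 against 10, and Tbx3, a T-box factor, 8 against 4. Dppa3 had 3 against 5, and Tcl1, an Akt coactivator, 2 against 1. The intervals of the ratios were 0.456 to 8.35 for Esrrb, 0.383 to 2.74 for Fbxo15 and 0.549 to 9.29 for Tbx3. A difference of the size found in RNA-rich wells, 7.91 for Esrrb and 7.88 for Fbxo15, was thus inside the interval for Esrrb and above it for Fbxo15. These intervals cover counting error only and leave out the spread between wells, so neither comparison decides whether such a difference was present. For Dppa3 and Tcl1 a difference was not detectable at this depth.

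Tdh and Tet1, which met the rule in RNA-rich wells, were also measured in low-RNA wells. Tdh, threonine dehydrogenase, feeds mitochondrial threonine breakdown in mouse ES cells. It had 0.416 to 7.41 (median 1.34) against 0 to 1.89 (median 0.995), a mean ratio of 1.83, and 1.37 without H01. In RNA-rich wells the means were 6.98 ± 3.96 and 0.836 ± 0.829, a ratio of 8.35. Tet1, which oxidises 5-methylcytosine in DNA, had 0 to 23.7 (median 2.77) against 0 to 5.55 (median 2.28). Its mean ratio was 2.08 from 184 against 82 molecules, but 1.51 without the highest well, F02, and the medians lay closer together than the means. In RNA-rich wells its ratio was 2.38.

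One well weighed on several of these genes. Well H01, with the highest Zfp42 level of the low-RNA wells, had the highest level of Tdh, Klf2 and Klf4 among the 14 Zfp42-high wells. It also had the highest level of Mtf2, a Polycomb accessory protein (7.41, ratio 1.61, and 1.32 without it). Tbx3, of few molecules, was highest there too (1.61), with a ratio of 1.83 that fell to 0.836 without H01. H01 held 31043 gene molecules and 6249 spike-in molecules, inside the range of the other low-RNA wells. Without it the CV of Zfp42 over the other 43 wells was 36.2%.

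**Figure D3:**
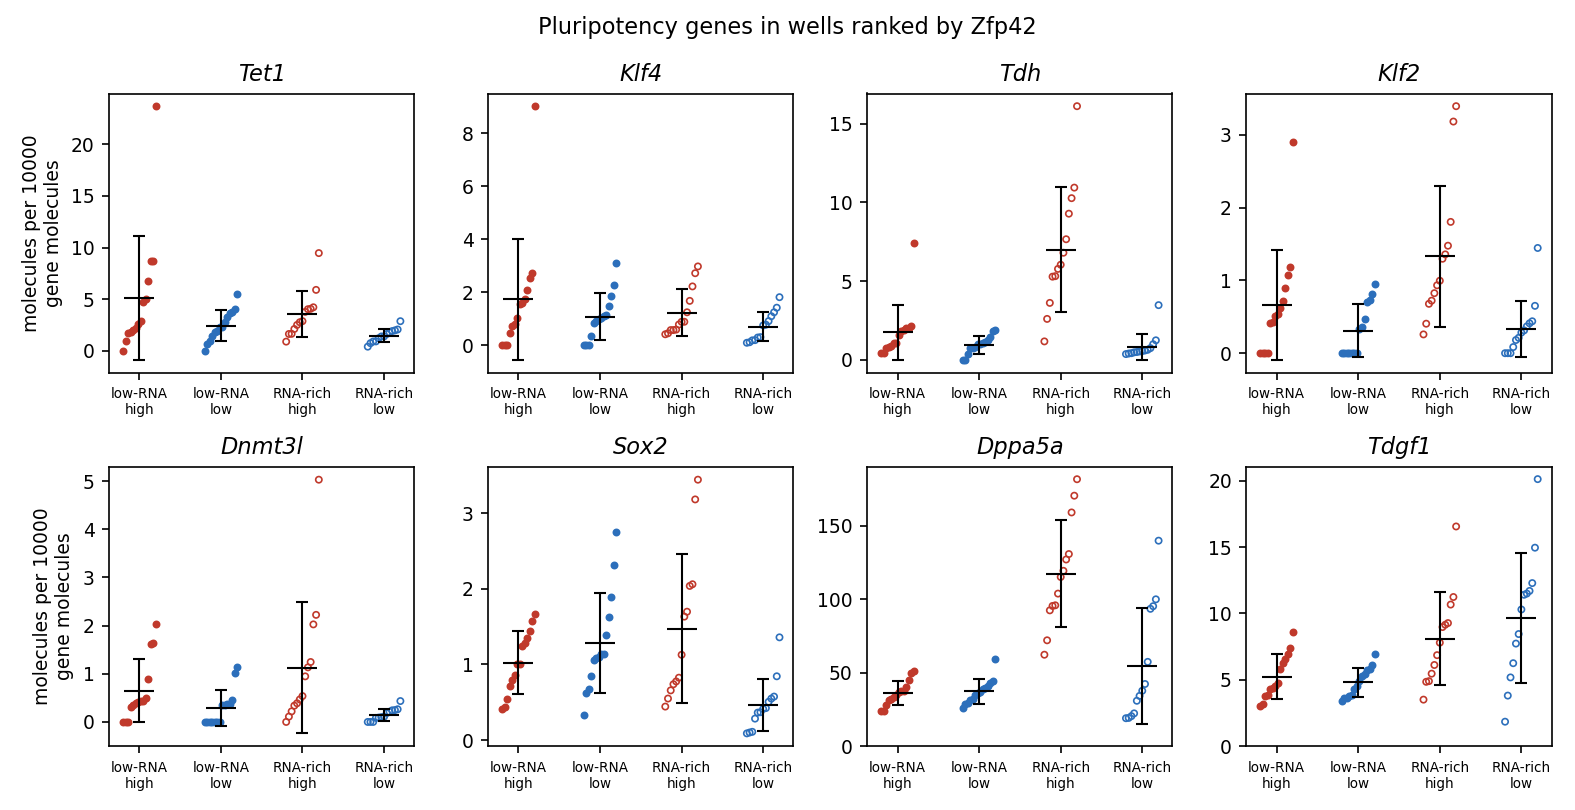
Levels (vertical axes, molecules per 10000 gene molecules) of 8 pluripotency and naive-state genes in the 14 Zfp42-high (red, filled) and 14 Zfp42-low (blue, filled) low-RNA wells and in the 13 and 13 RNA-rich wells (open). Points are wells in order of level, and bars are the mean ± SD over wells. Low-RNA groups overlap for each gene, and Dppa5a averages 36 and 37.1 in them against 117 and 54.7 in RNA-rich wells.

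No measured gene of the primed state or of Nodal signalling met the rule. In the primed and formative list, 6 of 17 genes were measured, 3 on each side of 1, with a median log2 ratio of 0.08. Sox4, a SOX family factor, had the lowest ratio of them, 0.562 (0 to 2.18 against 0 to 6.15), and is named after its value was seen. Dnmt3b, the de novo DNA methyltransferase of epiblast, had a ratio of 1.25 (0 to 4.92 against 0 to 7.74), where RNA-rich wells gave 0.436. Pim2, a serine/threonine kinase, had 0.855, or 1.02 without the highest well, and 0.177 in RNA-rich wells. Otx2 was at 0 molecules in both groups and Fgf5 at 0 against 1.

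Lefty1, a secreted Nodal inhibitor, had 1.29 to 5.4 (median 2.11) against 0.617 to 4.47 (median 2.36), a ratio of 1.08, or 0.994 without the highest well. In RNA-rich wells it was 0.366, and 0.206 or 0.563 without the highest well of either group. Lefty2 had 0.861 and 0.529, and the TGF-beta family ligand Gdf3 0.695, from 10 against 16 molecules, and 2.18. Trh, the precursor of thyrotropin-releasing hormone, had 1.17 and 0.907. The RNA-rich value of Trh rested on 1 Zfp42-low well, B05, at 36.8 where the next was at 4.28, and without it the ratio was 2.31. None of these differences between the sets of wells was tested.

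The list counts were bounded by the 0 higher and 5 lower genes over all 1440. No gene was higher in Zfp42-high low-RNA wells, so none of the 35 lists could hold one. Only the G2 and M phase list had a lower gene, Ckap2, of 17 measured, beside 0.347% of all genes. The 2-cell-like, mesendoderm and neural lists had 0 measured genes. Summed levels here and below take all genes of a list, measured or not. They were alike for cytosolic ribosomal proteins (815 ± 82.3 against 821 ± 96.7, 75 of 85 measured), glycolysis (61 ± 4.08 against 60.7 ± 8.69, 11 of 23 measured) and G2 and M phase genes (52.1 ± 5.48 against 52 ± 5.64). Among lists with at least 3 measured genes, the ratio of summed levels farthest from 1 was that of DNA methylation, 1.65, from 11.8 ± 6.77 against 7.13 ± 3.82. The sum takes 9 genes, of which Tet1, Dnmt3b and Dnmt1 were measured. Its ranges, 5.83 to 31.1 and 2.31 to 17.5, overlapped. Tet1 alone was at 23.7 in the Zfp42-high well F02.

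Immediate early and heat shock genes summed to 133 ± 45.4 against 120 ± 10.7, with 0 of 11 meeting the rule, and with 1 higher and 8 lower of 21 in RNA-rich wells, beside 2.75% and 4.29% of all genes there. The large SD came with 1 well, D04, which had the fewest gene molecules of the Zfp42-high wells (9879) and the highest Hsp90aa1 and Hsp90ab1, cytosolic chaperones, at 118 each. The feeder fibroblast and matrix list had 19.6 ± 3.15 against 20.4 ± 3.97, with 0 of 10 meeting the rule, and 3 of 17 lower in RNA-rich wells, or 2 of 14 without the feeder-rich wells. Malat1, a nuclear noncoding RNA, had 70.9 to 143 (median 84.8) against 62.3 to 264 (median 84.1). Its mean ratio was 0.871, and 0.992 without the highest Zfp42-low well.

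The metallothioneins Mt1 and Mt2, which bind zinc and copper, had ratios of 0.892 and 1.28. Krt8 and Krt18 had 0.903, or 1.06 without its highest well, and 0.898. Repeat elements, counted over both strands, gave 2 of 374 types higher (0.535%) and 0 lower (0%). Of the 374 types, 269 had a ratio above 1 and 105 below, with a median log2 ratio of 0.17, beside 649 and 791 of the genes. The 2 higher types were the endogenous retroviral internal sequence RLTR10-int, at 5.61 ± 3.17 against 2.45 ± 2.24, and the L1 fragment L1MC4a, at 2.16 ± 1.84 against 0.838 ± 0.747. Both are named after their values were seen. Repeat molecules per gene molecule had medians of 1.44 (0.896 to 2.49) and 1.23 (0.852 to 1.69). Over the 44 low-RNA wells their Spearman coefficient with the Zfp42 level was 0.0055, as a description.

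The genes most like Zfp42 over the 44 low-RNA wells had weak coefficients. Among the 505 genes with means of 5 or more molecules the highest Spearman coefficients were 0.420 for Bptf, a chromatin remodelling subunit, and 0.419 for Wnk1, a kinase of ion transport. Cfl1, the actin-severing cofilin, had 0.391, Kpna2, an importin whose reads were mostly not unique, 0.372, and Taf1d, a factor of ribosomal RNA transcription, 0.366. The wells share 1 chip and the division by each well's total. Wnk1 had 1.58 to 5.04 (median 2.50) in Zfp42-high and 0 to 3.61 (median 1.47) in Zfp42-low wells, a ratio of 1.83, and the groups overlapped. Bptf had 0.396 to 7.50 (median 3.35) against 0 to 6.4 (median 1.50), a ratio of 1.68. In RNA-rich wells the ratios were 1.20 for Wnk1 and 0.705 for Bptf. Hspa5, the chaperone BiP of the endoplasmic reticulum, had a coefficient of -0.407 and a ratio of 0.667 (1.23 to 7.08 against 2.11 to 7.32).

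The genes that met the rule in RNA-rich wells had summed levels closer to each other between the low-RNA groups. The 142 higher genes summed to 74.1 to 151 (median 100) per 10000 in Zfp42-high low-RNA wells and to 73.2 to 117 (median 92.3) in Zfp42-low wells. The means were 101 ± 19.8 and 93.1 ± 13.0, a ratio of 1.08, and 1.04 without H01, which was the highest well. Dppa5a is among the 142 genes and contributed 36 and 37.1 to these means, a ratio of 0.969, so it weighs heavily on the sum. The groups overlapped over most of their range. In the RNA-rich wells, where these genes were chosen, the means were 244 ± 35.7 and 90.8 ± 43.3, a ratio of 2.69. Of the 16 of these genes measured in low-RNA wells, 9 (56.2%) had a ratio above 1, beside 649 of all 1440 (45.1%), with a median log2 ratio of 0.14.

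The 222 lower genes summed to 75 to 113 (median 96.1) in Zfp42-high low-RNA wells and 64.8 to 186 (median 97.0) in Zfp42-low wells. The means were 95.3 ± 9.69 and 106 ± 28.6, a ratio of 0.902, against 0.328 in RNA-rich wells. Again the groups overlapped. Of the 23 measured genes, 17 had a ratio below 1 and 6 above, with a median log2 ratio of -0.24. Beside them, 791 of all 1440 genes had a ratio below 1, with a median log2 ratio of -0.03. Over the 1438 genes measured in both sets the Spearman coefficient of the log2 ratios was 0.158, across genes, which are not independent replicates.

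**Figure D4:**
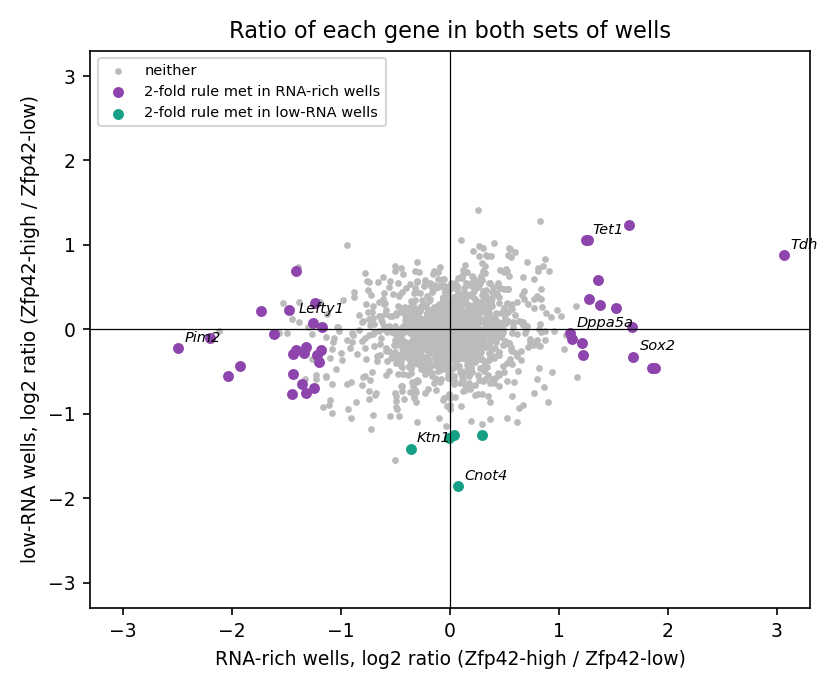
Log2 ratio of Zfp42-high over Zfp42-low in low-RNA wells (vertical axis) against RNA-rich wells (horizontal axis) for the 1438 genes measured in both. Purple points met the 2-fold rule in RNA-rich wells and green points in low-RNA wells, and the 5 green points lie below -1 on the vertical axis and near 0 on the horizontal one.

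**Figure D5:**
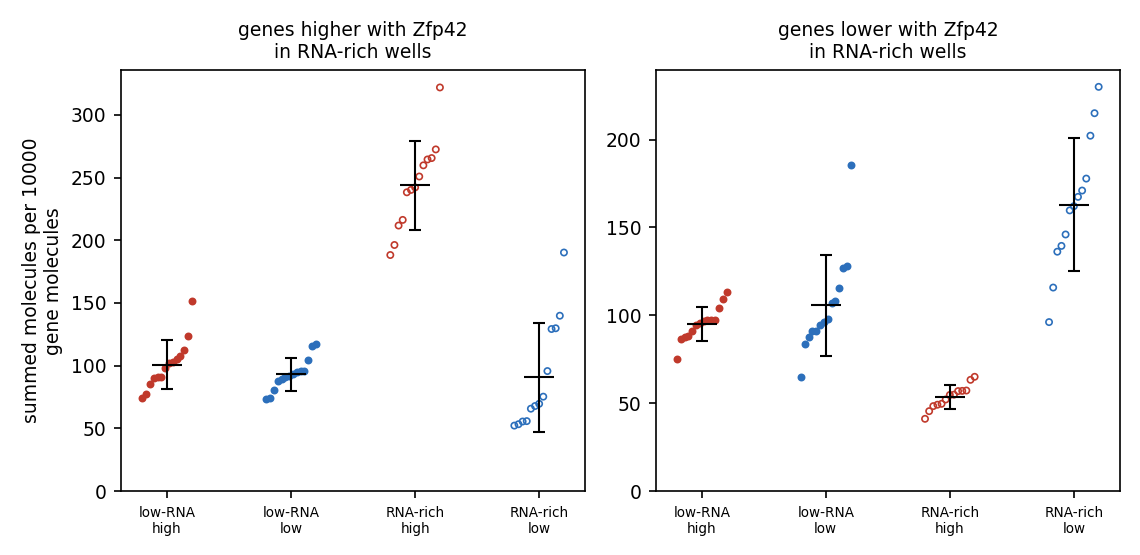
Summed levels (vertical axes, molecules per 10000 gene molecules, from 0) of the 142 genes higher (left) and 222 genes lower (right) with Zfp42 in RNA-rich wells. Points are wells, filled for low-RNA and open for RNA-rich, red for Zfp42-high and blue for Zfp42-low, and bars are the mean ± SD over wells. In low-RNA wells the means are 101 and 93.1 on the left and 95.3 and 106 on the right.

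The 16 measured genes did not share a direction. Myst4, a histone acetyltransferase, had the largest ratio of them, 2.36 (0 to 4.17 against 0 to 1.14), and Trim2, a ubiquitin ligase, had 2.09 (0 to 7.50 against 0 to 5.68), and neither passed 2 without its highest well. Myst4 met the rule in 8 of 23 alternative settings, among them division by spike-ins. Both are named after their values were seen. Tdh and Tet1 had ratios of 1.83 and 2.08, while Sox2 and Dppa5a, over 2 in RNA-rich wells, had 0.799 and 0.969. The Zfp42 level itself differed by construction in both sets, by a mean of 9.01 against 3.80 in low-RNA wells and 19.5 ± 6.49 against 2.09 ± 0.404 in RNA-rich wells.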

How the data were processed

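The values are molecule counts per gene, spike-in and repeat type for each of 96 wells, as deposited by the authors. The headers state that a read matching in several places was given to the most 5' exonic place, and 59.3% of Zfp42 molecules were unique. Repeats were counted over both strands. The submitters' processing notes name Bowtie and mm10 (GRCm38), with no version. Each column is a well and stands for both library forms, and 0 columns were left unused.

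Of 25914 features, 24264 were genes, 96 spike-ins and 1554 repeat types. Each well was divided by its own gene molecules and multiplied by 10000, spike-ins by the spike-in total. The rule for wells and the call rule are given with the results. The call rule was tested on simulated data. Because all wells came from 1 culture, no test was run, and intervals of ratios are exact 95% intervals on summed molecules, which cover counting error only. An image check for empty or broken chambers was not used here, no doublet caller was run, and no well shared its barcode with another (0).

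The members and the 35 gene lists were chosen with earlier results of these data known. Genes named were called genes with a mean of at least 5 molecules (10 per direction at most), up to 3 called genes and the 2 highest means of any list with 3 or more measured genes, 25 pluripotency, lineage and stress genes always named, and the 5 most like Zfp42. Not all of the genes from this rule are described. Alternatives changed the normalization, with edgeR TMM factors and DESeq2 size factors among them, the filter, the fold, the ranking and the wells. Leaving out single wells, or feeder-rich wells, and thinning RNA-rich wells were chosen after seeing the data. Gene positions are those of GENCODE M21, and upstream sequences of RefSeq, with all 3 genes matched by symbol. Tools were Python 3.11.15, numpy 2.4.6, pandas 2.3.3, scipy 1.17.1, matplotlib 3.10.9, R 4.3.3, edgeR 4.0.16 and DESeq2 1.42.0.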

Additional observations from a re-analysis of the deposited data

How the results depend on the processing

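The counts of 0 higher and 5 lower genes in low-RNA wells moved with the settings, and the cause was not tested except where the setting itself changes what is counted. Dividing by spike-ins, by TMM factors or by DESeq2 size factors gave 1 higher gene each, Myst4, and 6 lower genes, of which 4 were among the 5. Leaving mitochondrial genes and Rn45s out of the total gave 2 higher, summed molecules 1 higher and 8 lower, and medians 19 and 26. Thinning to 8774 molecules left 483 genes, with 2 higher and 0 lower. A mean of at least 1 molecule gave 34 and 46, no filter 859 and 986 of 12471 genes, and a mean of at least 5 gave 0 lower of 505 genes. A fold of 1.5 gave 24 and 43, a fold of 3 gave 0 lower, and leaving no well out 8 and 19. Comparing 22 with 22 wells gave 0 higher and 0 lower, and 11 with 11 gave 6 and 10, of which 3 were among the 5. Wells of at most 30000 gene molecules gave 3 higher and 6 lower, and of at least 15000, 2 higher and 8 lower, each with 2 of the 5. Leaving out keratin-high wells gave 2 higher, and ranking within ranges of RNA content 2, both with 4 of the 5. Ranking by Zfp42 per spike-in gave 9 higher and 5 lower, of which only 1 was among the 5. Chosen after seeing the data, ranking within chip columns gave 1 higher and 6 lower with 3 of the 5, leaving out H01 gave 1 higher with all 5 lower genes kept, and leaving out F02 gave 0 higher and 6 lower with 3 of the 5. Of the 5 lower genes, 4 had the same direction when all RNA-rich wells were used, against 2. RNA-rich wells gave 28 higher and 40 lower after thinning, of which 13 and 18 met the rule there without thinning. Cnot4 and Ktn1 kept a log2 ratio below 0 in every setting that gave one, from -1.88 to -0.73 and from -1.58 to -0.87. For named genes, 105 log2 ratios moved outside their counting interval and 1658 did not, and 0 reversed a call. Depth limits genes of few molecules most. No paired analysis was possible because each column is a well and both library forms share it.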

Other observations

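Other genes also varied less over the low-RNA wells than over the wells with more RNA, in a set of 12 genes chosen with results known, with Pou5f1 as the exception. Over the 44 low-RNA wells and all 51 RNA-rich wells, keratin-rich ones included, the CV of Krt8 was 44.1% and 161%. It was 58.6% and 171% for Trh, 37.7% and 143% for Mt1, 49% and 134% for Lefty1, and 21.3% and 62.7% for Dppa5a. Gapdh, a glycolytic enzyme, had 19.3% and 28.3%. Levels of Krt8 ran from 0.980 to 7.98 in low-RNA wells and from 0.402 to 30.5 in RNA-rich wells, and those of Dppa5a from 23.6 to 59.3 and from 10.3 to 181. The 51 wells include C03 and H03, with 36465 and 55740 spike-in molecules against a median of 7992. Keratin-rich wells were set apart by Krt8 plus Krt18, so including them widens Krt8 by construction. In the 40 RNA-rich wells without them the CV of Krt8 plus Krt18 was 48.6%, beside 33.6% in low-RNA wells. Pou5f1 went the other way, with 102.7% and 49.6%. Its low-RNA levels ran from 0 to 6.84 (median 0.989), from a mean of 2.66 molecules per well. The highest level was in a well that was not compared, since Zfp42-high and Zfp42-low wells reached 1.74 and 1.42. Its molecules are mostly not uniquely matched. The ranges come from 1 chip and their difference was not tested.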
